A study of Mus musculus with 27 samples.

Results

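In all, 10 serotonin receptor genes were followed in the gene counts of 27 mouse brain libraries. The 10 members were Htr1a, Htr1b, Htr1d, Htr1f, Htr2a, Htr2c, Htr3a, Htr4, Htr6 and Htr7. They were found among 52636 counted gene identifiers by matching each identifier to its symbol. The list itself was chosen with earlier results of these data known. All mice were on the 129S1 background and about 2.5 months old. Wild-type mice were compared with Igf2enh-/- mice, which carry a homozygous deletion of a 4.9 kb intergenic stretch between H19 and Igf2 with 1 loxP site left in its place. The deletion was made in embryonic stem cells and is carried in the germ line, the selection cassette having been removed by mating to an Hprt-CRE line, so it is not limited to the brain. Total RNA was sequenced from frontal cortex (6 wild-type and 6 Igf2enh-/- libraries, each 3 female and 3 male) and striatum (7 wild-type, 3 female and 4 male; 8 Igf2enh-/-, 4 female and 4 male). The labels number the libraries from 1 to 27 but do not link a cortical library to a striatal library of the same mouse, so p-values measure the spread between libraries.

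Serotonin released by raphe axons acts on the forebrain through a large receptor family. Receptors of the Htr1 class couple to inhibitory Gi/o proteins, those of the Htr2 class to Gq and phospholipase C, and Htr4, Htr6 and Htr7 to the cAMP-raising Gs family, whereas Htr3a encodes a subunit of a ligand-gated cation channel. In cortex, Htr1a and Htr2a are known from pyramidal cells and Htr3a from a class of interneurons. In striatum, Htr1b, Htr2c, Htr4 and Htr6 are known from medium spiny projection neurons, and Htr2c is also a classic gene of the choroid plexus, the epithelium that secretes cerebrospinal fluid. Many receptors sit on axon terminals, so the transcript in a region does not locate the protein.

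Totals ran from 24929068 to 30979248 counts per frontal cortex library and from 23686945 to 33926904 per striatal library, so 1 CPM (the count scaled to 1000000 counts per library) stood for 23.7 to 33.9 counts. Levels are in CPM scaled by trimmed mean of M values (TMM) unless stated. Medium spiny neuron markers (16 genes) summed to 563.3 to 691.6 CPM in frontal cortex and to 5504 to 14690 CPM in striatum. Cortical projection neuron markers (15 genes) summed to 3093 to 3460 CPM in frontal cortex and to 1053 to 1993 CPM in striatum. Each sum was thus higher in the region of its label, but Bcl11b, Foxp2 and Tle4 of the cortical list were higher in striatum. Bcl11b, for example, was at 60.5 to 96.1 CPM in frontal cortex and at 241 to 606 CPM in striatum. The cortical projection neuron marker Slc17a7 lay between 1480 and 1680 CPM in frontal cortex, but it spread from 13.7 to 746 CPM within the striatal libraries. The 7 markers of serotonergic neurons summed to 4.802 to 6.95 CPM in frontal cortex and to 4.665 to 8.1 CPM in striatum. Most of this was Gata2 alone, at 3.67 to 5.89 CPM in frontal cortex and 3.62 to 6.25 CPM in striatum. Their defining transporter Slc6a4 was at 0 to 0.0773 CPM in frontal cortex and at 0 to 0.121 CPM in striatum. Igf2 lay between 52.1 and 107 CPM (median 71.5) in wild-type and between 88.6 and 173 CPM (median 119) in Igf2enh-/- frontal cortex. In striatum the ranges of 33.9 to 44.1 CPM (median 37) and 46 to 258 CPM (median 51.5) did not overlap.

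By markers 3 striatal libraries were set apart, library 19 less clearly than the others. Library 15 (Igf2enh-/-, female) held the highest level of all 19 choroid plexus markers, which summed to 4778 CPM against a median of 222 CPM over the striatal libraries. Library 20 (wild-type, male) held the lowest level of all 16 medium spiny neuron markers and the highest of all 6 oligodendrocyte markers, with Slc17a7 at 746 CPM. Library 19 (Igf2enh-/-, male) had a medium spiny neuron sum of 7651 CPM and the highest sum, 164.2 CPM, of 5 markers of globus pallidus and septal neurons, led by Zic1 at 121 CPM. Other libraries came near it. The medium spiny neuron sum lay at -0.67 in log2 against the striatal median in library 19, and at -0.52 and -0.53 in libraries 23 and 26. Library 26 (wild-type, male) had a globus pallidus and septal sum of 122.1 CPM. Results on striatum were also computed without libraries 15, 19 and 20, a choice made after seeing the data. Libraries 23 and 26 were kept in those fits.

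The first question was how the receptor transcripts differed between the regions. All 10 members differed between striatum and frontal cortex at an adjusted p under 0.05 (edgeR quasi-likelihood test, averaged over genotypes), 5 higher and 5 lower in striatum. The background for these counts was high: 68.1% of the 20836 genes tested were called, 34.7% higher and 33.3% lower in striatum. The median log2 fold change was 0.246 over the members and 0.013 over all genes tested. The former is the midpoint between Htr6 (0.82) and Htr1f (-0.33), so it shows no common direction of the members. The libraries of the 2 regions did not overlap at all for 5 of 10 members (Htr1b, Htr1d, Htr3a, Htr4 and Htr6), against 20.7% of the genes tested. In these tissue extracts fewer cells of a type and less RNA per cell cannot be told apart.

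Among the Gi/o-coupled members, Htr1d and Htr1b stood far higher in striatum. Htr1d (ENSMUSG00000070687, chr4:136423522-136444405, plus strand, GRCm38) was nearly absent from frontal cortex, with 2 to 21 reads per library. Its level there had a lowest, median and highest value of 0.0776, 0.134 and 0.298 CPM in wild-type mice and of 0.12, 0.193 and 0.679 CPM in Igf2enh-/- mice. In striatum the same values were 7.51, 14.6 and 17.5 CPM in wild-type mice and 7.77, 13.4 and 14.3 CPM in Igf2enh-/- mice. Every striatal library exceeded every frontal cortex library, and the difference in log2 was 5.85 ± 0.21 (SE; edgeR adjusted p = 2.27e-18). Htr1b (ENSMUSG00000049511, chr9:81628291-81633832, minus strand), which encodes a terminal autoreceptor and heteroreceptor, had the highest mean CPM of the members in striatum. Htr2c was nonetheless above it in some striatal libraries, such as library 19 (115 against 89.2 CPM). Htr1b had a lowest, median and highest level of 10.2, 12.6 and 14.7 CPM in wild-type and of 12.3, 14.2 and 20.8 CPM in Igf2enh-/- frontal cortex. In striatum these were 45.2, 107 and 137 CPM in wild-type mice and 71.1, 109 and 136 CPM in Igf2enh-/- mice. The regions did not overlap, the striatal level was 7.57-fold higher, and the log2 fold change was 2.92 ± 0.14 (SE; edgeR adjusted p = 8.07e-16). A RefSeq long non-coding RNA, D430036J16Rik, overlaps Htr1b, and the strand setting of the counting is not given in the sources used here.

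Htr1a and Htr1f, the other Gi/o-coupled members, were not higher in striatum. Htr1a (ENSMUSG00000021721, chr13:105443693-105448133, plus strand), the somatodendritic receptor of cortical pyramidal cells, had a lowest, median and highest level of 21.9, 24.9 and 28 CPM in wild-type and of 18.2, 27.5 and 28.9 CPM in Igf2enh-/- frontal cortex. In striatum these were 2.58, 6.7 and 15.4 CPM in wild-type mice and 2.59, 4.92 and 20.8 CPM in Igf2enh-/- mice, so that 14 of 15 striatal libraries lay below every frontal cortex library. The library that did not was library 19. The log2 fold change was -1.78 ± 0.26 (SE; edgeR adjusted p = 8.47e-07), and its striatal range was far wider than its cortical one. Htr1f (ENSMUSG00000050783, chr16:64924729-65105784, minus strand) was low in both regions, at 1.44 to 3.98 CPM in frontal cortex and 1.37 to 2.8 CPM in striatum. Its ranges overlapped almost completely, and its log2 fold change of -0.33 ± 0.14 (SE) only just passed the test (edgeR adjusted p = 0.0424). It did not pass within wild-type mice (adjusted p = 0.27) or within Igf2enh-/- mice (adjusted p = 0.0929) alone, without the 3 libraries (adjusted p = 0.0935) or in 14 of 27 fits that left out 1 library.

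The Gq-coupled members went in opposite directions. Htr2c (ENSMUSG00000041380, chrX:146962464-147197277, plus strand) had a lowest, median and highest level of 9.75, 15.5 and 21.3 CPM in wild-type and of 13, 16.1 and 24.5 CPM in Igf2enh-/- frontal cortex. In striatum these were 23.2, 92.2 and 105 CPM in wild-type mice and 59.5, 85.8 and 122 CPM in Igf2enh-/- mice. Only library 20, at 23.2 CPM, fell among the frontal cortex values, just under the highest of them. The striatal level was 5.11-fold higher, with a log2 fold change of 2.35 ± 0.19 (SE; edgeR adjusted p = 1.48e-11). Htr2a (ENSMUSG00000034997, chr14:74640874-74706859, plus strand), the receptor through which classic hallucinogens act, had a lowest, median and highest level of 17.9, 27.1 and 32.1 CPM in wild-type and of 19.6, 31.8 and 37.6 CPM in Igf2enh-/- frontal cortex. In striatum these were 9.68, 14.4 and 25.8 CPM in wild-type mice and 13.9, 16.9 and 20.6 CPM in Igf2enh-/- mice. The regions overlapped, with 10 of 15 striatal libraries below the lowest cortical one, and the log2 fold change was -0.70 ± 0.13 (SE; edgeR adjusted p = 2.31e-05). The RefSeq span of Htr2c holds 8 small RNA genes, 7 of them annotated as microRNAs, which are listed separately from it.

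Of the Gs-coupled members, Htr4 and Htr6 were higher and Htr7 lower in striatum. Htr4 (ENSMUSG00000026322) lay between 0.271 and 0.841 CPM in 11 frontal cortex libraries and at 1.68 CPM in library 1 (Igf2enh-/-, female). In striatum its lowest, median and highest levels were 3.58, 7.22 and 7.8 CPM in wild-type mice and 5.34, 6.55 and 8.23 CPM in Igf2enh-/- mice. Every striatal library exceeded every cortical one, by 3.51 ± 0.19 (SE) in log2 (edgeR adjusted p = 1.06e-14). Htr6 (ENSMUSG00000028747, chr4:139059706-139075570, minus strand) had a narrow range, at 3.44 to 4.8 CPM in frontal cortex and 5.21 to 8.73 CPM in striatum. Although its log2 fold change was only 0.82 ± 0.07 (SE; edgeR adjusted p = 5.97e-11), the regions did not overlap. Htr7 (ENSMUSG00000024798, chr19:35958415-36058133, minus strand) lay between 11.6 and 18.1 CPM in frontal cortex. In striatum its lowest, median and highest levels were 2.23, 4.36 and 7.71 CPM in wild-type mice and 2.51, 3.75 and 12.5 CPM in Igf2enh-/- mice, the highest again in library 19, the only striatal library within the cortical range. Its log2 fold change was -1.59 ± 0.19 (SE; edgeR adjusted p = 2.01e-08).

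The ion channel subunit Htr3a (ENSMUSG00000032269, chr9:48899213-48911152, minus strand) was lower in striatum. It had a lowest, median and highest level of 3.16, 3.67 and 4.15 CPM in wild-type and of 3.36, 4.03 and 5.03 CPM in Igf2enh-/- frontal cortex. In striatum these were 0.344, 1.06 and 1.6 CPM in wild-type mice and 0.562, 0.997 and 1.88 CPM in Igf2enh-/- mice, with no overlap between regions. The log2 fold change was -1.93 ± 0.17 (SE; edgeR adjusted p = 1.20e-10). The other subunit, Htr3b, stayed at or under 0.142 CPM in every library. The 12 markers of the interneuron class named for Htr3a summed to overlapping ranges, 815.9 to 1009 CPM in frontal cortex and 698.5 to 1143 CPM in striatum. Single markers went both ways: Vip was at 50.6 to 70.6 and 0.55 to 22.8 CPM, and Cnr1 at 231 to 312 and 337 to 890 CPM. The part of these cells in the Htr3a difference was not tested.

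**Figure D1:**
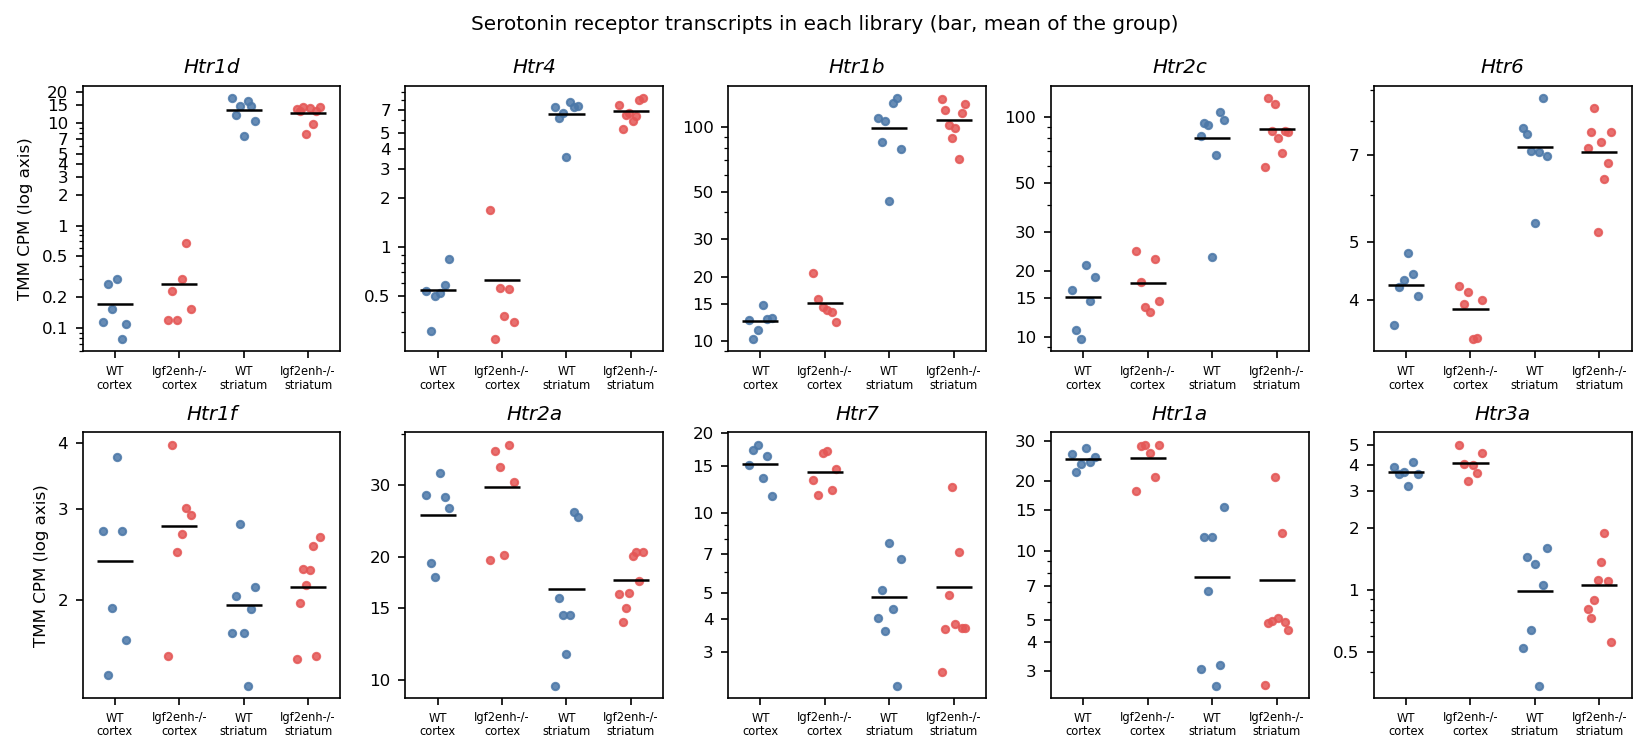
TMM-scaled CPM (log axis) of each serotonin receptor gene in every library, with wild-type in blue and Igf2enh-/- in red and a bar at each group's mean. Htr1d, Htr4, Htr1b and Htr6 in striatum lie above all frontal cortex libraries, Htr3a lies below them, and 1 striatal library each of Htr1a and Htr7 reaches the cortical range (20.8 and 12.5 CPM).

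The regional pattern was seen in both genotypes. In wild-type mice 9 of 10 members were called (57.1% of all genes tested) and in Igf2enh-/- mice 9 of 10 (58.8%), in both cases all but Htr1f. The log2 fold change of Htr1d was 6.26 ± 0.31 (SE) in wild-type and 5.44 ± 0.28 (SE) in Igf2enh-/- mice, that of Htr4 was 3.58 ± 0.27 and 3.44 ± 0.27, and that of Htr1b was 3.01 ± 0.20 and 2.83 ± 0.19. At the other end, Htr3a gave -1.91 ± 0.25 and -1.95 ± 0.23, and Htr7 gave -1.71 ± 0.27 and -1.47 ± 0.25. The test of the difference between these values, the region by genotype interaction, called 0 of 10 members with edgeR (0 at an unadjusted p under 0.05) and 0 with DESeq2, as it called 0% of all 20836 genes with edgeR. The widest gap, for Htr1d, was -0.81 ± 0.55 (SE; unadjusted p = 0.151) and rested on a few reads: without library 9, at 0.679 CPM, it was -0.21. Without libraries 15, 19 and 20 the 9 members other than Htr1f were called in the averaged comparison, with log2 fold changes from -1.98 (Htr1a) to 5.94 (Htr1d).

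**Figure D2:**
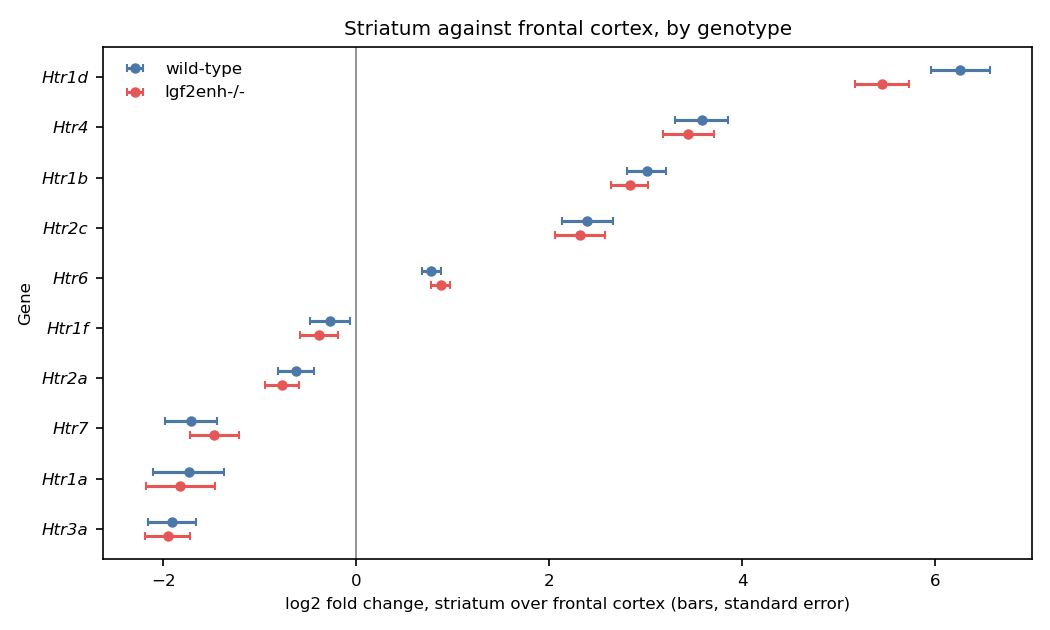
Log2 fold change of each gene between striatum and frontal cortex within wild-type (blue) and within Igf2enh-/- mice (red); points are edgeR estimates and bars are standard errors. The order of the genes is the same at both ends, from Htr1d at 6.26 and 5.44 to Htr3a at -1.91 and -1.95, and the Htr1f values lie nearest to 0.

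Start-site sequences are shown for the striatum-high members Htr1b, Htr1d and Htr2c and, for contrast, for the cortex-high Htr7. The windows shown for Htr1b, Htr1d and Htr2c span the outer 5′ end of the RefSeq gene. That of Htr7 does not: it lies wholly within the gene span (chr19:35958415-36058133, minus strand). RefSeq windows of 300 bases (GRCm38.p6, 5′ to 3′ on the gene's strand) were matched for 8 of 10 members. Capitals mark the letters of a CCAAT box (CCAAT, or ATTGG on the other strand) or of a GC box (GGGCGG, or CCGCCC on the other strand).
Htr1b, chr9:81633783-81634082, minus strand: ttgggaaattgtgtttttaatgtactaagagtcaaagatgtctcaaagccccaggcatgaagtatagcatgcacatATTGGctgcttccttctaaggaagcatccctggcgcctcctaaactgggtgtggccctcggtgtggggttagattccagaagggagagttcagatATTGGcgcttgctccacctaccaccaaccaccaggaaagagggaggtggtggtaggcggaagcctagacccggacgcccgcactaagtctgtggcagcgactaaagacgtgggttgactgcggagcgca
Htr1d, chr4:136423274-136423573, plus strand: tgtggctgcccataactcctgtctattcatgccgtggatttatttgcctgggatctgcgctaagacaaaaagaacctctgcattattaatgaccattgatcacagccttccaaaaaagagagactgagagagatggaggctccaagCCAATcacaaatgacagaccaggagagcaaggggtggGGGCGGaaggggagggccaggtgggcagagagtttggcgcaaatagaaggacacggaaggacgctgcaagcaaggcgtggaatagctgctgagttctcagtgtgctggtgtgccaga
Htr2c, chrX:146962263-146962562, plus strand: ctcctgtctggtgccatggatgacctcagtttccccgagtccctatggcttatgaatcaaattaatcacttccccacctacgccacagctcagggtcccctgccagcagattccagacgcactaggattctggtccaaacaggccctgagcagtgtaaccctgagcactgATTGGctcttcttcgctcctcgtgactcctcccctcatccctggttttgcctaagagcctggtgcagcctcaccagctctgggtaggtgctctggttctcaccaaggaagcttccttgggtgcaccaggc
Htr7, chr19:36057311-36057610, minus strand: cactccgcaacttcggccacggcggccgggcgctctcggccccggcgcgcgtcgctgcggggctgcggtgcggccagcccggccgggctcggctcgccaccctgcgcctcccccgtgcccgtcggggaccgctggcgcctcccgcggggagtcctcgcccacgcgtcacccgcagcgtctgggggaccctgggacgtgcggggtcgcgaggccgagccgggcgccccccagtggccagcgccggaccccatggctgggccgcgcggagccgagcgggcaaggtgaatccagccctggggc

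The Htr1b window held 2 CCAAT matches and those of Htr1d and Htr2c 1 each, whereas no other member's window held any. Over all 32851 windows 37.4% held one, so 3 of 8 members is near the background. A GC box stood in 35.7% of all windows and in those of Htr1a, Htr1d, Htr1f, Htr2a and Htr6. The windows differed more in base composition. That of Htr7, which lies within the gene span, was 81% G and C with 46 CpG pairs, more than in 98.4% of all windows. That of Htr2c held 5 CpG pairs and that of Htr1b 11, against a median of 7. The CpG count did not follow the regional direction. Windows of the striatum-high Htr6 and Htr1d held 29 and 28 CpG pairs (each gene has another window, with 10 and 7). Those of the cortex-high Htr1a and Htr2a held 7 and 6. Neither a TATA box (TATAAA) nor a cAMP response element (TGACGTCA) was found in any member's window, with 13.6% and 1.79% of all windows holding them on either strand.

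Within striatum some of the members moved with the markers of the tissue sampled. Library 22 (wild-type, male) had the lowest Slc17a7, at 13.7 CPM, and there Htr1a was 2.58, Htr3a 0.344 and Htr7 4.36 CPM, with Htr1b at 130 CPM. Library 20 had the highest Slc17a7, at 746 CPM, and there Htr1a was 11.4, Htr3a 1.34 and Htr7 7.71 CPM, with Htr1b at 45.2 CPM. Library 20 held the lowest striatal level of Htr1b, Htr1d, Htr2c and Htr4. In libraries 16, 23 and 26, with Slc17a7 at 565, 559 and 471 CPM, Htr1a stood at 11.5, 11.9 and 15.4 CPM. The match was not close: library 19 had the highest Htr1a and Htr7, at 20.8 and 12.5 CPM, with Slc17a7 lower, at 359 CPM. Over the 15 libraries Htr1b and Htr1d rose with the mean log2 level of the medium spiny neuron list (Pearson r = 0.95 and 0.93, Spearman rho = 0.9 and 0.77), and Htr1a, Htr7 and Htr3a went against it (r = -0.84, -0.79 and -0.67, rho = -0.94, -0.74 and -0.79). These values stayed between 0.89 and 0.93 for Htr1b and Htr1d, and between -0.95 and -0.79 for the other 3, without libraries 19 and 20, the farthest from the median of the list. Htr6 and Htr4 gave 0.77 and 0.72 (rho = 0.62 and 0.6), but only 0.49 and 0.34 without those 2 libraries. For Htr2c the value of 0.52 rested on them, since r was -0.13 without them and rho over all 15 was -0.15. Htr2a and Htr1f gave 0.01 and -0.16 over all 15 (rho = -0.11 and -0.39). In the 12 frontal cortex libraries the highest of 30 correlations was that of Htr1a with the mean log2 level of the cortical projection neuron list. It was r = 0.93 (rho = 0.86, and r = 0.86 without the 2 farthest libraries). The other members gave r from -0.46 (Htr4) to 0.63 (Htr1f) with that list. The cortex-high Htr7 and Htr3a gave -0.24 and -0.33. The correlations are descriptions over 12 or 15 libraries that share a normalisation, and 30 were computed in each region. The part of the tissue sampled in any regional difference was not tested.

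**Figure D3:**
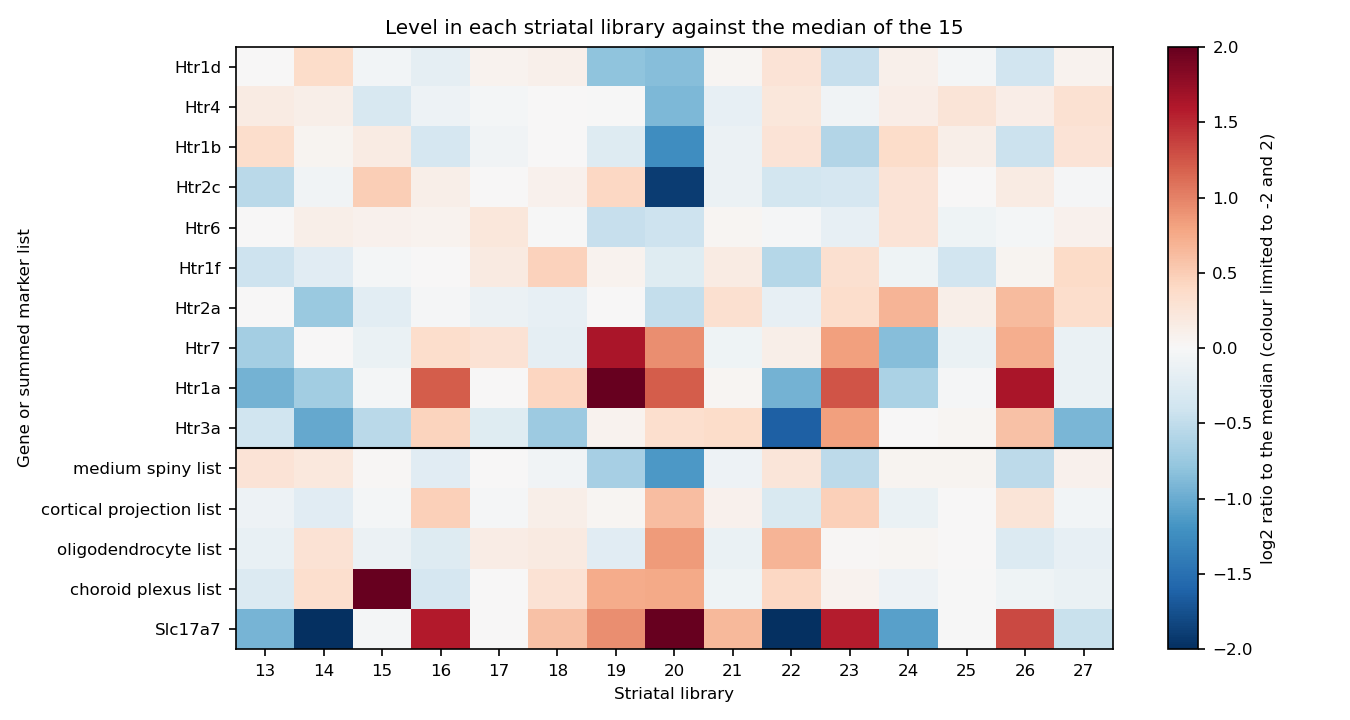
Log2 ratio of each gene (upper 10 rows) and of summed marker lists and Slc17a7 (lower 5 rows) in each striatal library to the median of the 15, with colour limited to -2 and 2. Htr1a and Htr7 are raised in library 19 (20.8 and 12.5 CPM), Htr1d, Htr4, Htr1b and Htr2c are lowest in library 20 together with the medium spiny neuron list, and the choroid plexus list stands out in library 15 alone.

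Htr2c was examined in library 15 because choroid plexus epithelium expresses it. The thyroxine carrier Ttr, the epithelium's most abundant transcript, reached 3040 CPM in library 15 and 5.45 to 106 CPM in the other 14 striatal libraries. Htr2c there was 122 CPM, the highest of the 15 and 1.42 times the median of the others (85.8 CPM), but not far from library 19 (115 CPM) or library 24 (105 CPM). No other member was highest or lowest in library 15, and Htr1b and Htr6 lay at 1.15 and 1.07 times the median of the rest. The share of the Htr2c reads of this library that came from choroid plexus was not tested. Without library 15 the genotype difference of Htr2c in striatum went from 0.14 ± 0.25 (SE) to 0.06 ± 0.25 (SE) in log2, and its regional difference within Igf2enh-/- mice from 2.31 to 2.23. In frontal cortex, where Htr2c was 9.75 to 24.5 CPM, the 19 choroid plexus markers summed to 175.2 to 272.7 CPM, with Ttr at 0 to 0.718 CPM and Enpp2 alone at 162 to 262 CPM.

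The second question was whether deletion of the enhancer changed the receptor transcripts. No member passed the test in either region, and the genotypes overlapped for all 10 in both (they did not overlap for 1.30% of genes tested in frontal cortex and 0.238% in striatum). In frontal cortex 8 members were tested, since Htr1d and Htr4 had under 1 CPM in some library, and edgeR called 0 of 8, with 1 at an unadjusted p under 0.05. The background was 0.380% of 13936 genes. In striatum 9 were tested, since Htr3a was under the limit, and edgeR called 0 of 9, with 0 at an unadjusted p under 0.05, against a background of 0.0360% of 13875 genes. The likelihood ratio test and DESeq2 also called 0 members in both regions. The median log2 fold change of the tested members was 0.193 in frontal cortex and 0.107 in striatum, beside 0.001 and 0 for all genes tested.

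In frontal cortex the largest value was that of Htr1b, with a log2 fold change of 0.29 ± 0.12 (SE; unadjusted p = 0.0261, edgeR adjusted p = 0.294). With every gene of at least 1 count kept, 3 of 10 members were at an unadjusted p under 0.05 and 0 were called. The lowest adjusted p was then that of Htr1b, 0.0557 (edgeR). Of the libraries, 2 of 6 Igf2enh-/- libraries lay above the highest wild-type library, and 5 of 6 lay above the wild-type median. Library 1 was the highest at 20.8 CPM, and without it the value was 0.18. That library also had the lowest cortical projection sum (3093 CPM) and the lowest level of all 6 oligodendrocyte markers in frontal cortex, whose part in the value was not tested. Htr2a, Htr1f and Htr2c gave 0.24 ± 0.17, 0.23 ± 0.23 and 0.23 ± 0.20 (SE), and Htr3a gave 0.15 ± 0.11. These also leaned on single libraries, falling to 0.14 for Htr2a and 0.05 for Htr1f without library 3, and to 0.08 for both Htr2c and Htr3a without library 1. Htr1a was at 0.02 ± 0.11, Htr7 at -0.09 ± 0.12 and Htr6 at -0.13 ± 0.09 (SE), with adjusted p-values of the 7 from 0.539 to 0.966. With standard errors of 0.0892 to 0.227 in log2, small changes of these genes were not detectable with this number of libraries.

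In striatum the log2 fold changes lay between -0.10 and 0.14. Htr2c was highest at 0.14 ± 0.25 (SE; edgeR adjusted p = 0.903) and turned to -0.20 ± 0.115 (SE) without libraries 15, 19 and 20. Htr1f, Htr7, Htr2a and Htr1b gave 0.13 ± 0.16, 0.13 ± 0.30, 0.12 ± 0.16 and 0.11 ± 0.20 (SE). Htr4 was at 0.05 ± 0.14, Htr6 at -0.04 ± 0.10, Htr1a at -0.10 ± 0.45 and Htr1d at -0.10 ± 0.16 (SE). Without libraries 15, 19 and 20 Htr1a was at -0.35 ± 0.47 (SE) and Htr1b at 0.0071 ± 0.17 (SE). The standard error of Htr1a was the largest of the 9. The 3 members under the limit were compared by an exact two-sided permutation test of the mean log2(CPM + 0.5). In frontal cortex Htr1d differed by 0.17 (exact p = 0.355) and Htr4 by 0.03 (exact p = 0.916), and in striatum Htr3a differed by 0.09 (exact p = 0.683), each higher in Igf2enh-/- mice by less than the spread between libraries.

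**Figure D4:**
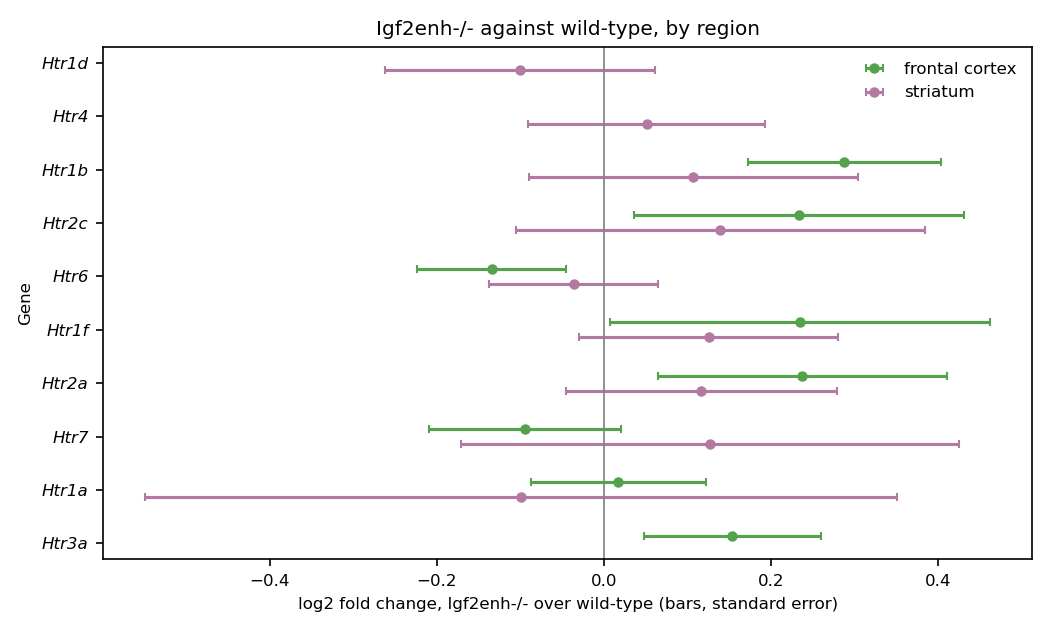
Log2 fold change of each gene between Igf2enh-/- and wild-type mice in frontal cortex (green) and striatum (purple); points are edgeR estimates, bars are standard errors, and genes without a point had under 1 CPM in some library of the region. The values run from -0.13 to 0.29 in frontal cortex and from -0.10 to 0.14 in striatum, with the longest bar for Htr1a in striatum.

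Sex was a term of the fits. No member differed between females and males in frontal cortex (0 of 8 with edgeR, 0 at an unadjusted p under 0.05; background 0.0431%) or in striatum (0 of 9, with 1 at an unadjusted p under 0.05; background 0.0432%). The value at that level was Htr2a in striatum, at 0.42 ± 0.16 (SE) in log2 with males higher (unadjusted p = 0.0223, edgeR adjusted p = 0.452). The genotype by sex interaction called 0 of 8 members in frontal cortex (1 at an unadjusted p under 0.05; background 0.0215%) and 0 of 9 in striatum (1 at that level; background 0%).

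In frontal cortex this interaction depended on the filter on low counts. Htr1b was 10.2 to 12.5 CPM in the 3 wild-type and 14.5 to 20.8 CPM in the 3 Igf2enh-/- females. In males it was 12.7 to 14.7 CPM and 12.3 to 14 CPM. Htr2c was 9.75 to 16.4 CPM in wild-type and 13.7 to 24.5 CPM in Igf2enh-/- females, and 14.6 to 21.3 CPM and 13 to 22.5 CPM in males. The Htr2c ranges overlapped in both sexes. The genotype difference of Htr1b within females was 0.58 ± 0.13 (SE; unadjusted p = 0.000428, edgeR adjusted p = 0.24) and within males -0.01 ± 0.13 (SE). The interaction was -0.59 ± 0.18 (SE) for Htr1b, -0.72 ± 0.36 for Htr2c and -0.41 ± 0.34 for Htr2a in log2, with edgeR adjusted p of 0.763, 0.763 and 0.811. With every gene of at least 1 count kept, the estimates were the same to 2 decimals, but the standard errors fell to 0.139, 0.131 and 0.111 and all 3 were called (adjusted p = 0.00519, 3.08e-05 and 0.033), as were 0.938% of the 33060 genes then tested. So these calls depended on which genes entered the fit, with 3 libraries of each sex and genotype.

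**Figure D5:**
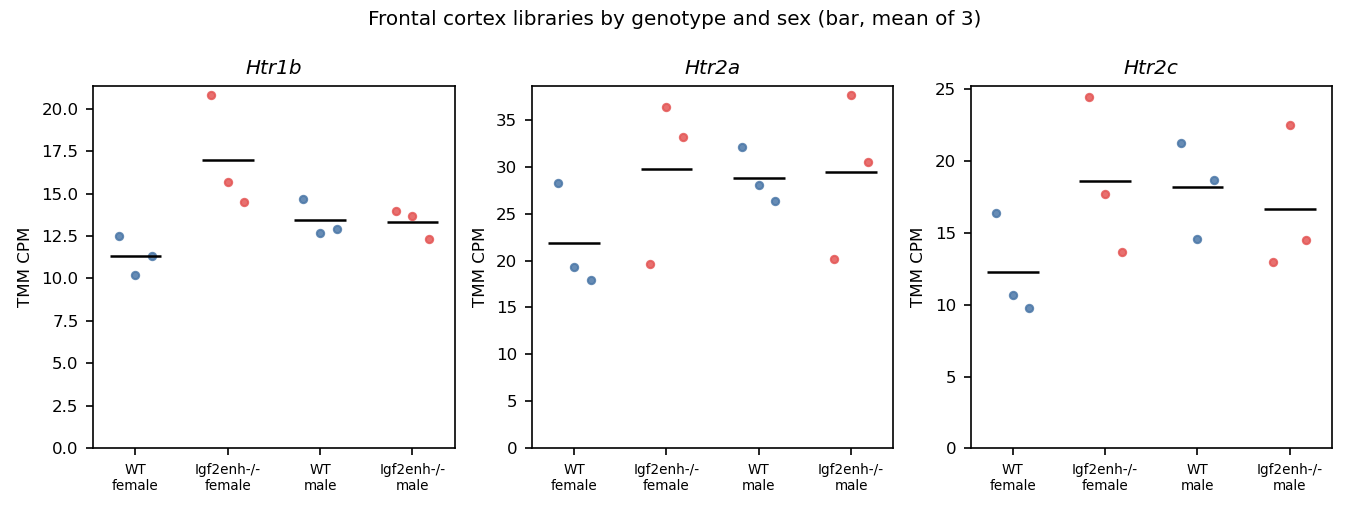
TMM-scaled CPM of Htr1b, Htr2a and Htr2c in the frontal cortex libraries, split by sex and genotype (3 libraries each; blue wild-type, red Igf2enh-/-; bar, mean). Htr1b is at 14.5 to 20.8 CPM in Igf2enh-/- and 10.2 to 12.5 CPM in wild-type females, a difference that was not called (edgeR adjusted p = 0.24). The Htr2a and Htr2c ranges overlap in both sexes.

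To rank the members against each other, levels were divided by the length of each gene's annotated exons. In wild-type frontal cortex Htr1b was first at 9.73 ± 1.2 (SD, n = 6) CPM per kb, followed by Htr2a at 8.53 ± 1.87, Htr1a at 5.63 ± 0.482 and Htr7 at 4.51 ± 0.707, the libraries of each overlapping those of the next in this list. Htr7 lay above every library of the next member. Htr6, Htr3a and Htr2c formed a lower set at 1.81 ± 0.166, 1.78 ± 0.161 and 1.63 ± 0.483 CPM per kb whose ranges also overlapped in turn. Htr1f was at 0.946 ± 0.343, and Htr4 and Htr1d were last at 0.118 ± 0.0372 and 0.0531 ± 0.0283 CPM per kb, below all libraries of Htr1f. In wild-type striatum Htr1b led at 78 ± 25 (SD, n = 7) CPM per kb, above every library of the next member, Htr2c at 8.58 ± 2.98. From Htr2c down to Htr3a, at 0.477 ± 0.237 CPM per kb, each member overlapped the next, in the order Htr2a, Htr1d, Htr6, Htr1a, Htr7, Htr4 and Htr1f. The order of the 10 means in striatum was the same in Igf2enh-/- mice.

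The rank of Htr1b depended on its length. The exons used covered 1273 bp, while the RefSeq gene, whose coding region has no intron, spans 5542 bp. With the longer value Htr1b was at 17.9 CPM per kb in wild-type striatum and at 2.23 CPM per kb in wild-type frontal cortex, under Htr2a, Htr1a and Htr7. Likewise Htr2c was at 16.4 CPM per kb in wild-type striatum over its longest transcript of 4883 bp in place of all exons (9328 bp). So the first place of Htr1b in frontal cortex did not hold with the longer length, while Htr1b and Htr2c stayed the 2 highest members in striatum. The wide lead of Htr1b over Htr2c in striatum did not hold with both of these lengths (17.9 and 16.4 CPM per kb).

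The genes of most similar pattern were taken as the 2 highest Pearson correlations over all 27 libraries among 13802 other genes, a measure dominated by the difference between regions. Htr1b was most like Kcnab1 (r = 0.995) and Pard3 (0.994), and Htr1d most like Serpina9 (0.996) and the substance P receptor Tacr1 (0.996). Htr4 was most like Isl1 (0.99), a transcription factor that is also on the medium spiny neuron list, and Ryr3 (0.988), and Htr2c most like Cntnap3 (0.979) and Trpc7 (0.978). Of the cortex-high members, Htr1a was most like Ppm1e and Sez6l (both 0.983), Htr3a most like Adcyap1, which encodes the neuropeptide PACAP, and Ext1 (both 0.974), and Htr7 most like Pip5k1b (0.963) and Ankrd29 (0.961). Htr6 was most like Dgat2 and Camkv (both 0.967), Htr2a most like the somatostatin receptor Sstr4 (0.877) and Zfp322a (0.874), and Htr1f only as like as 0.677 (Cyp26b1) and 0.646 (Hdgfl3). Over the 15 striatal libraries alone Htr2c was most like Vat1l (0.943) and Col5a2 (0.939), and without library 15 most like Usp11 (0.955) and Rab9b (0.948). None of these 4 is on the choroid plexus list, but such correlations could not test a choroid plexus share. Htr2c lay farthest from the striatal median in library 20 (-1.90 in log2), and at 0.50 in library 15.

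Of 4 other receptor genes, 2 had enough counts to be tested, and both were lower in striatum, as were 33.3% of all genes. Htr5a, a Gi/o-coupled receptor, lay between 24.7 and 30.8 CPM in frontal cortex and between 7.59 and 16.8 CPM in striatum (log2 fold change -1.36, edgeR adjusted p = 3.28e-12), and Htr5b was low in both (-2.02, adjusted p = 7.54e-07). Htr2b and Htr3b, at up to 0.194 and 0.142 CPM, had too few counts to be tested. For genotype, Htr5a gave -0.13 ± 0.05 (SE) in frontal cortex (unadjusted p = 0.0292, edgeR adjusted p = 0.307).

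Of 16 genes of serotonin synthesis, packaging, uptake and breakdown, 13 were tested between regions and 8 were higher and 2 lower in striatum, with a median log2 fold change of 0.113. This share is near the 68.1% of all genes called. Within each genotype 7 of 13 were called, against 57.1% of all genes in wild-type and 58.8% in Igf2enh-/- mice. The organic cation transporter Slc22a3, which takes up monoamines, showed the smallest p (log2 fold change 2.41 ± 0.15 SE, edgeR adjusted p = 1.47e-13), from 2.8 to 5.47 CPM in frontal cortex to 9.71 to 27.8 CPM in striatum. The decarboxylase Ddc was also higher (1.11 ± 0.08 SE, adjusted p = 6.56e-12), as were Qdpr, which regenerates tetrahydrobiopterin (0.80), and Pts, which makes it (0.24). None of the 9 genes tested for genotype in each region was called.

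Of 18 effector genes, 16 differed between regions, 7 higher and 9 lower in striatum, against 68.1% of all genes (34.7% higher and 33.3% lower), and their median log2 fold change was -0.09 beside 0.013 over all genes. Gnal, the Gs-family subunit of striatum, was higher by 2.26 ± 0.10 (SE; edgeR adjusted p = 1.78e-16), from 152 to 189 CPM in frontal cortex to 391 to 1030 CPM in striatum. Gnas, of the same family, was lower (-1.13 ± 0.11 SE, edgeR adjusted p = 1.06e-09), from 1080 to 1160 CPM in frontal cortex to 357 to 769 CPM in striatum. The Gq subunit Gnaq was lower (-0.64 ± 0.04 SE, adjusted p = 1.34e-14), as was Gnaz, of the Gi family (-0.65 ± 0.04 SE, adjusted p = 7.51e-14), and the Go subunit Gnao1 was higher by 0.32. No effector gene was called for genotype among 16 tested in frontal cortex and 15 in striatum, where the smallest p-values were those of Kcnj9, a subunit of the potassium channels that Gi/o-coupled receptors open (-0.18 ± 0.05 SE in frontal cortex, edgeR adjusted p = 0.123), and of Gnaz (-0.13 ± 0.06 SE in striatum, adjusted p = 0.521).

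All 13 receptor partners and RNA-editing genes differed between regions, 2 higher and 11 lower in striatum, against 68.1% of all genes (33.3% lower), with a median log2 fold change of -0.18. Adarb2, a relative of the enzymes that edit Htr2c messages, was lower (-0.74 ± 0.07 SE, edgeR adjusted p = 1.01e-09). S100a10, a partner of Htr1b and Htr4, was at 10.2 to 17.7 CPM in frontal cortex and at 2.98 to 7.77 CPM in striatum (-1.29 ± 0.12 SE, adjusted p = 3.00e-10), and Mpdz, a scaffold that binds Htr2c, was lower as well (-0.73 ± 0.07 SE). The kinase Jak2 was higher (0.55 ± 0.05 SE). None of the 13 was called for genotype in the fits over both sexes in either region: the smallest p was that of the kinase Fyn, at -0.29 ± 0.07 in frontal cortex (SE; adjusted p = 0.101) and -0.30 ± 0.09 in striatum (SE; adjusted p = 0.331). Fyn was, however, 1 of the 3 genes called in the genotype by sex interaction in frontal cortex (-0.50 ± 0.06 SE, edgeR adjusted p = 0.00772), the only gene of the 4 lists called there. The 3 wild-type males lay at 178 to 183 CPM, above the wild-type females (124 to 129 CPM), the Igf2enh-/- females (118 to 129 CPM) and the Igf2enh-/- males (122 to 129 CPM). In striatum, too, Fyn spread more widely in wild-type (134 ± 30.6 CPM, SD) than in Igf2enh-/- libraries (106 ± 3.76 CPM, SD). The cause was not tested.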

How the data were processed

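Total RNA from frontal cortex and striatum was depleted of ribosomal RNA and sequenced as 75 bp reads. Per the submitters' notes, Trim Galore 0.5.0 was used for trimming and STAR for alignment to mouse GRCm38. The authors deposited raw counts per Ensembl gene, which were used unchanged. The counting tool and its strand setting are not given in the sources used here. Identifiers were matched to symbols for 32688 of 52636 genes. Groups, sex and library numbers came from the labels. The 10 members and all gene and marker lists were chosen with earlier results of these data known, so no list is independent support.

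Counts were scaled by TMM and tested with edgeR 4.0.16 (R 4.3.3) by the quasi-likelihood test with Benjamini-Hochberg adjustment over all genes tested, at an adjusted p under 0.05. Genotype was fitted with sex within each region over genes of at least 1 CPM in every library of that region. Region and its interaction with genotype were fitted over all 27 libraries and genes with a mean of at least 0.1 CPM. Members under the filter were compared by exact two-sided permutation of log2(CPM + 0.5). Alternatives were DESeq2 1.42.0, the likelihood ratio test, other scalings, filters and covariates, and leaving out libraries. Fits without libraries 15, 19 and 20, and the RefSeq span of Htr1b, were added after seeing the data. All 10 members are named, with up to 4 genes of smallest p per pathway list in each comparison and the 2 genes most like each member. Gnas was named besides, to stand beside Gnal. Per-length levels used exon lengths of an older annotation (NCBIM37). Depth was 23686945 to 33926904 counts per library. The fits were tested on simulated data.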

Additional observations from a re-analysis of the deposited data

Results flagged for a closer look

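Each member's log2 CPM was checked for a single library far from the rest of its group, the gap to the nearest library being divided by the group's whole range. Of 40 groups tested, 3 held such a library, where chance alone flags about 5%, or 2. Htr2c in wild-type striatum had a gap of 0.705 of the range, with library 20 at 23.2 CPM and the others at 67.4 to 105 CPM. Htr4 in wild-type striatum had a gap of 0.706, again for library 20, at 3.58 CPM against 6.23 to 7.8 CPM. That library also held the lowest level of all 16 medium spiny neuron markers, whose part in these values was not tested. Htr4 in Igf2enh-/- frontal cortex had a gap of 0.692, with library 1 at 1.68 CPM and the others at 0.271 to 0.561 CPM. Outside the members, the genotype difference of the kinase gene Fyn in frontal cortex differed between the sexes, with an interaction of -0.4975 in log2 (males minus females, edgeR adjusted p = 0.00772). The 3 wild-type males lay at 178 to 183 CPM against 118 to 129 CPM in the other 9 libraries. What set them apart was not tested.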

How the results depend on the processing

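No paired analysis was possible because the groups share no library numbers and the labels do not tie libraries of both regions to 1 mouse. No member was called for genotype in any fit run, and the regional calls of all members but Htr1f held in every alternative that tested them. With at least 1 CPM required in every library, Htr1d, Htr3a and Htr4 were not tested. Htr1f was not called with total count scaling, without a filter or without libraries 15, 19 and 20. Over all genes, the 53 genotype calls in frontal cortex became 232 by the likelihood ratio test, 247 by DESeq2, 459 without a filter and 29 with RNA integrity number added, and ran from 8 to 96 when 1 library was left out. The 5 in striatum became 56, 112 and 10 by the first 3 of these, 13 with edgeR's own filter and 3 without the sex term, and ran from 3 to 8. The genotype by sex interaction in frontal cortex called 3 members without a filter and 0 otherwise. Without libraries 15, 19 and 20 the striatal genotype values of Htr2c, Htr4 and Htr7 turned to -0.20, -0.0001 and -0.0192, the interaction of Htr3a to 0.10, and the sex values of Htr2c and Htr4 to 0.0159 and 0.0381. Without library 15 the genotype by sex value of Htr4 in striatum was -0.0705. With 1 library left out, values that changed sign ran from -0.0345 to 0.0939 for Htr1a genotype in frontal cortex. In striatum they ran from -0.43 to 0.17 for Htr1a, -0.0042 to 0.22 for Htr1b, -0.0168 to 0.24 for Htr2c, -0.0492 to 0.0936 for Htr4, -0.0862 to 0.0283 for Htr6 and -0.14 to 0.23 for Htr7. For the region by genotype interaction they ran from -0.46 to 0.16 for Htr1a, -0.28 to 0.0473 for Htr1f, -0.24 to 0.0397 for Htr2c, -0.22 to 0.12 for Htr3a, -0.31 to 0.42 for Htr4 and -0.0646 to 0.37 for Htr7. None of these was called, and the cause was not tested. Depth limits Htr1d in frontal cortex most, at 2 to 21 counts per library.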
